A study of Mus musculus with 9 samples.

Results

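Pericytes and smooth muscle cells are the mural cells that wrap the endothelial tube of brain vessels. The 10 genes followed here mark those cells, and their chromatin was read in libraries of purified mouse brain endothelial cells (ECs). They were Pdgfrb, Rgs5, Cspg4, Kcnj8, Abcc9, Notch3, Anpep, Acta2, Myh11 and Tagln, 10 of 21924 protein-coding genes of the annotation. All peaks that the authors' annotation assigned to one of these genes were collected, plus any peak over one of their transcription start sites (TSSs), which gave 66 of 253457 peaks. The genes were chosen because their promoters had been seen mainly in the peak lists of old EC-K4KO mice. Presence, class and rank of their peaks are therefore a description, with no test.

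Accessible DNA, which the Tn5 transposase cuts and tags for sequencing in Omni-ATAC-seq, was profiled in nuclei of flow-sorted live brain ECs. Young WT Cre mice (n = 2 libraries) and old WT Cre mice (n = 2) carried VE-cadherin (Cdh5) Cre with intact Klf4. The same Cre with floxed Klf4 was carried by 3 young EC-K4KO and 2 old EC-K4KO libraries, Klf4 being a Krüppel-like transcription factor gene that tamoxifen then deletes in ECs. Broad peaks on GRCm38 (mm10) had been called separately for every library. The Cdh5 promoter directs Cre to endothelium, so mural cells of EC-K4KO mice should keep Klf4. The labels give age as young or old only, and the sort gate was not given in the sources used here. The labels do not say that libraries came from separate animals, so spreads and p-values cover these libraries only. Library names carry 1 prefix per age, so batch and age cannot be told apart.

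Mural cells share the basement membrane with ECs. Pericytes sit on capillaries, are recruited there by endothelial PDGF-BB acting on the receptor that Pdgfrb encodes, and help to keep the blood-brain barrier closed. Smooth muscle cells ring arterioles and set their diameter through contractile proteins, whose genes serum response factor and its partner myocardin switch on at CArG boxes. ECs express these genes weakly or not at all, which is why they serve as markers of the neighbouring cells.

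The lists differed in length, which bears on every count below. Young WT Cre lists held 6157 and 9598 peaks, young EC-K4KO lists 23848, 25309 and 27992, old WT Cre lists 43893 and 32555, and old EC-K4KO lists 45026 and 39079. Read totals were not analysed here, so depth is unknown and no interval is given. The labelled cell type was checked against 20 endothelial genes, of which 9 and 10 had a peak over a TSS in young WT Cre, 14, 15 and 18 in young EC-K4KO, and 17 or 18 in each old list. The TSS peak of Cldn5, the main claudin of brain endothelium, ranked within the top 8.78% to 14.7% of all 9 lists, while Pecam1 had no TSS peak in 3 young lists. Of 58 genes marking fibroblasts, astrocytes, microglia, oligodendrocytes, neurons and neutrophils, 45 had no TSS peak in any list. Of all protein-coding genes, 54.4% had one in at least 1 list. The number of the 58 that had one was 0 and 1 in young WT Cre, 3, 5 and 6 in young EC-K4KO, 6 and 6 for old WT Cre, and 9 and 11 for old EC-K4KO.

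The DNA under 4 of the regions outside promoters is shown first, because most member peaks lay outside promoters and these regions recurred in 3 or more libraries. Peaks of different libraries that shared at least 1 bp were merged, which turned the 66 peaks into 37 regions. Only 2 of these regions recurred across all 4 old libraries, in intron 7 of Acta2 and in exon 24 of Notch3. The intronic region of Rgs5 is the only recurrent one of that gene. The upstream region of Acta2 is the single region of the 37 that held a CArG box of strict form (CC and GG around A and T bases only). Each sequence covers 300 bases of GRCm38, 5′ to 3′ on the strand of its gene. Capitals mark the bases that lay inside the peak of every library with one (41 bases in Acta2 intron 7, 125 in Notch3, 159 in Rgs5), or, in the upstream region of Acta2, the CArG box.
Acta2 intron 7, chr19:34244057-34244356, minus strand: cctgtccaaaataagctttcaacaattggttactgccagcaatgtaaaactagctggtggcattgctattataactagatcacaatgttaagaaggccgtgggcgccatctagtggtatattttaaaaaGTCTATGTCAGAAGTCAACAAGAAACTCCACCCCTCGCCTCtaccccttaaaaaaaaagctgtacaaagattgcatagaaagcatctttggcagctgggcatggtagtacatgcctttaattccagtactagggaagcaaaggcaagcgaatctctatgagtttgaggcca
Notch3 exon 24 and the start of the next intron, chr17:32143216-32143515, minus strand: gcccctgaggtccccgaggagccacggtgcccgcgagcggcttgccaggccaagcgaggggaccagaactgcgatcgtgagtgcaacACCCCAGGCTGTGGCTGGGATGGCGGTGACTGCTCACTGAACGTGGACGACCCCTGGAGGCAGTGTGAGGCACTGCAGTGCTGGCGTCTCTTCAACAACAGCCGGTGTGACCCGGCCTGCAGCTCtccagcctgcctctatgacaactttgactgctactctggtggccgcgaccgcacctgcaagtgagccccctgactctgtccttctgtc
Rgs5 intron 3, chr1:169685304-169685603, plus strand: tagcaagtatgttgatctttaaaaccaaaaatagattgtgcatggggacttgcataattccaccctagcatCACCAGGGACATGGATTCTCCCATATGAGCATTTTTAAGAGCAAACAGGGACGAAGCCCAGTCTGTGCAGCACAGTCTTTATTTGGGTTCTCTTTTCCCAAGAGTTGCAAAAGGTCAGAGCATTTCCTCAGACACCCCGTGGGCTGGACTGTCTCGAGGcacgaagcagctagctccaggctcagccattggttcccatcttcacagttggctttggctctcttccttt
Acta2 upstream region, chr19:34265645-34265944, minus strand: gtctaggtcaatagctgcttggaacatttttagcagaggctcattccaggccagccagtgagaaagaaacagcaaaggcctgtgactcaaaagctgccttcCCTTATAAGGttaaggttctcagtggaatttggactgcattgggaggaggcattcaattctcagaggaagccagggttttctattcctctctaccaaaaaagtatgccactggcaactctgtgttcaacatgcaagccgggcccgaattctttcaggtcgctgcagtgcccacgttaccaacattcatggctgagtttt

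The member genes were nearly empty in young lists and held most of their peaks in old ones. Young WT Cre replicates 1 and 2 held 1 and 0 member peaks. Young EC-K4KO replicates 1 to 3 held 2, 0 and 4. Old WT Cre replicates 1 and 2 held 5 and 14, and old EC-K4KO replicates 1 and 2 held 23 and 17. The group mean was 20 ± 4.2 (SD, n = 2) for old EC-K4KO, 9.5 ± 6.4 (n = 2) for old WT Cre, 2.0 ± 2.0 (n = 3) for young EC-K4KO and 0.50 ± 0.71 (n = 2) for young WT Cre. Thus 59 of the 66 peaks were in old lists, and both old EC-K4KO lists held more than either old WT Cre list.

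A list that reaches weaker peaks can hold more member peaks, so the counts were also set against list length. Per 10000 peaks, member genes took 1.62 and 0 peaks in young WT Cre, 0.839, 0 and 1.43 in young EC-K4KO, 1.14 and 4.30 for old WT Cre, and 5.11 and 4.35 for old EC-K4KO. On this scale old WT Cre replicate 2 lay beside the old EC-K4KO lists, and old WT Cre replicate 1 lay beside the young ones although its list was the second longest. When every old list was reduced to its strongest 32555 peaks, the length of the shortest old list, old WT Cre held 3 and 14 member peaks and old EC-K4KO held 10 and 10. At equal length the 2 old genotypes thus overlapped, because old WT Cre replicate 2 held the most. In these bulk libraries a larger share of mural nuclei and more accessible mural genes in each nucleus cannot be told apart.

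**Figure D1:**
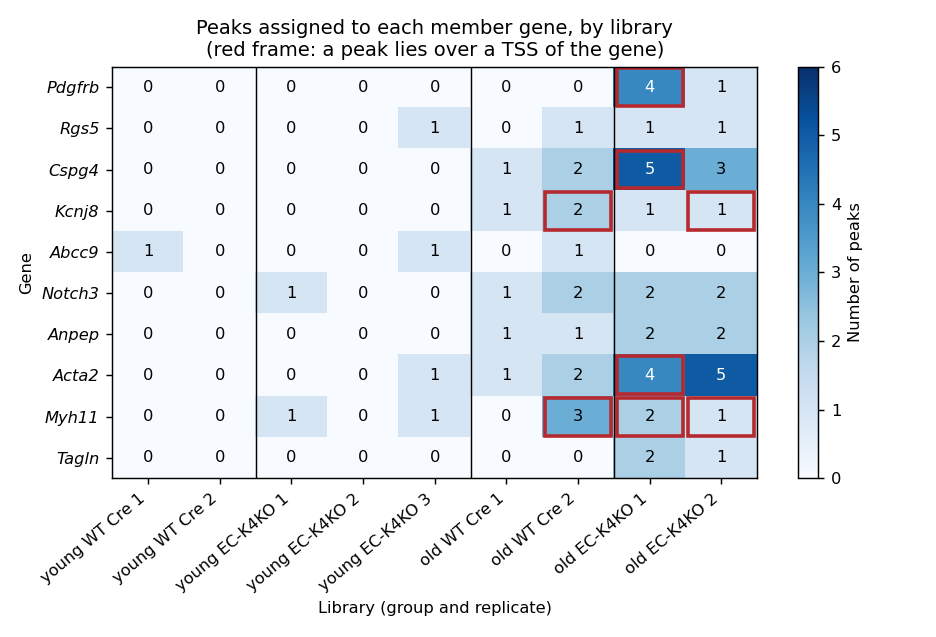
Number of peaks assigned to each of the 10 genes (rows) in each of the 9 libraries (columns, grouped by age and genotype), with a red frame where a peak lies over a TSS of the gene. Frames appear only in old WT Cre replicate 2 and the old EC-K4KO libraries, and young libraries hold 7 of the 66 peaks.

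Promoters were a small part of the signal. Of the 66 peaks, the authors' annotation placed 32 in introns, 18 between genes, 10 in the promoter-TSS class and 6 in exons, and 8 lay over a TSS. The promoter-TSS share of member peaks was 15.2%. Of whole lists it was 18.8% to 25.2% in old libraries, which held 59 of the 66 peaks, and 25.6% to 55.4% in young ones. By library, 0 of 5 and 2 of 14 member peaks in old WT Cre were of this class, beside 18.8% and 25.2% of those lists. In old EC-K4KO the counts were 5 of 23 and 3 of 17, beside 19.1% and 21.5%. Only 5 of the 10 genes (Pdgfrb, Cspg4, Kcnj8, Acta2 and Myh11) had a peak over a TSS in any list, beside 54.4% of all protein-coding genes. The other 5 (Rgs5, Abcc9, Notch3, Anpep and Tagln) had none in any of the 9 lists.

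The TSS peaks were confined to 3 libraries. No young list and not old WT Cre replicate 1 had any, old WT Cre replicate 2 had 2 (Kcnj8 and Myh11), old EC-K4KO replicate 1 had 4 (Pdgfrb, Cspg4, Acta2 and Myh11) and old EC-K4KO replicate 2 had 2 (Kcnj8 and Myh11). Pdgfrb, Cspg4 and Acta2 thus had a TSS peak in at least 1 old EC-K4KO list and in no other, a pattern met by 2.42% of protein-coding genes. This contrast chose the genes, so nothing is read from the count. With both old EC-K4KO lists required, the count fell to 0 of 10, beside 1.26% of all genes with no old WT Cre list and 0.68% with no other list at all. At least 1 old EC-K4KO list and no young list was met by 5 of 10 members beside 5.34%, and at least 1 old EC-K4KO list, whatever the others, by the same 5 beside 52% of all genes. Both old EC-K4KO libraries shared a peak over a TSS at 1 gene, Myh11, which old WT Cre replicate 2 had too. For the wider contrast, a TSS peak in every old EC-K4KO list and no young WT Cre list was met by 22.8% of all genes and by Myh11 alone of the 10. The like pattern was met by 0 of 10 members for old WT Cre (19.3% of all genes) and for young EC-K4KO (9.76%).

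All these TSS peaks were weak within their lists. Ranks are given as the percent of the list at or above the peak when ordered by the authors' −log10 p, so that 0% is strongest. The 8 TSS peaks ranked between 56.7% and 85.3%, and their fold enrichment over the local background lay between 3.00 and 4.79. In the same 3 libraries the median TSS peak of the endothelial genes ranked at 22.8% in old WT Cre replicate 2, 14.5% in old EC-K4KO replicate 1 and 17.9% in old EC-K4KO replicate 2. When lists were limited to the strongest 32555 peaks, the TSS peaks of Pdgfrb, Cspg4 and Acta2 in old EC-K4KO replicate 1 were lost, and old WT Cre and old EC-K4KO held 0 and 2 against 1 and 2. In the strongest 6157 peaks no library had a member TSS peak.

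**Figure D2:**
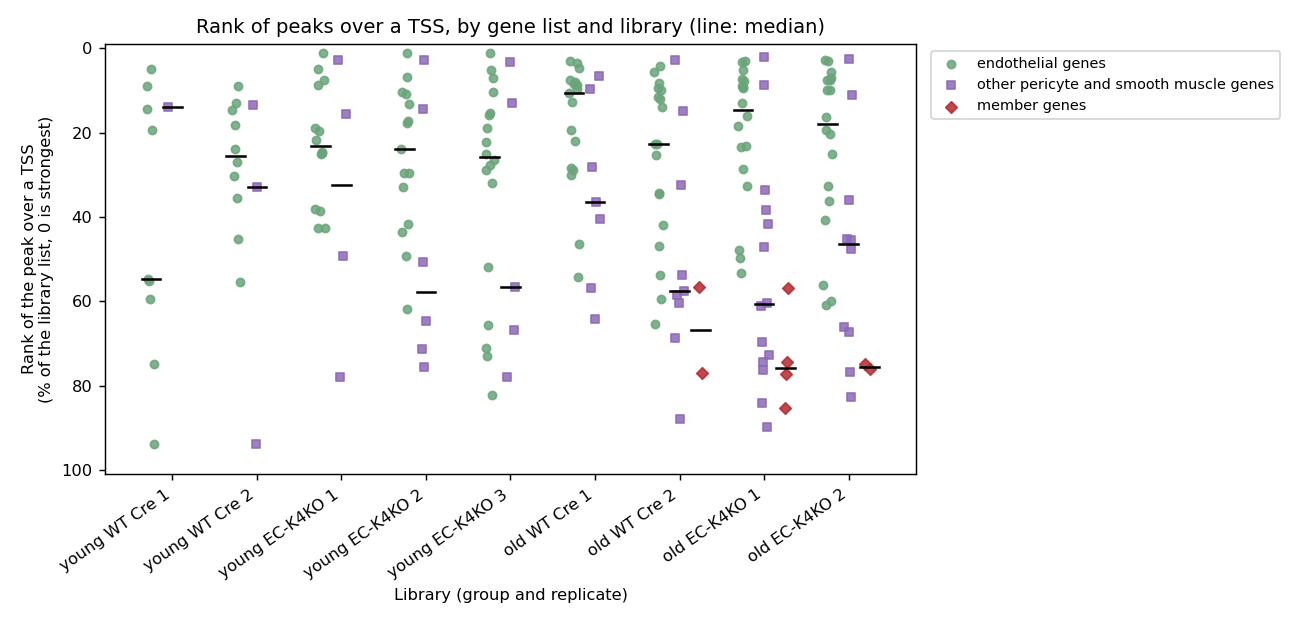
Rank of each peak over a TSS within its library list (percent, 0 at the top is strongest) for endothelial genes, other pericyte and smooth muscle genes and the member genes, with black lines at the median. Member points appear in 3 old libraries between 56.7% and 85.3%, below the endothelial median of each.

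The receptors and surface proteins of pericytes come first. Pdgfrb, the PDGF-BB receptor, had 5 peaks at 5 places, and all of them were in old EC-K4KO lists, 4 in replicate 1 and 1 in replicate 2. The TSS peak in replicate 1 had a fold of 3.00 and ranked at 85.3%. The other 4 lay in introns, 9637 to 23367 bp downstream of the TSS, with ranks from 74.9% to 99.0% and folds from 2.74 to 3.37. No place in Pdgfrb was shared by both replicates, so each of its peaks rests on 1 library.

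Cspg4, which encodes the NG2 proteoglycan of pericytes, had 11 peaks in 6 regions, with 5 and 3 peaks in old EC-K4KO, 1 and 2 in old WT Cre and none in young lists. The TSS peak (chr9:56864906-56865061) was in old EC-K4KO replicate 1 with a fold of 3.51 and a rank of 77.3%. The region in intron 5 (chr9:56891519-56891826) recurred in 3 old libraries, with folds of 3.02 in old WT Cre replicate 1, 3.89 in old EC-K4KO replicate 1 and 5.38 in old EC-K4KO replicate 2, and ranks of 54.4%, 67.0% and 56.2%. Another 2 regions, both in intron 1, held a peak in both old EC-K4KO libraries and in no other, with folds between 2.81 and 3.48 and ranks from 74.2% to 98.3%. In each of them the peaks of both libraries overlapped over part of their length only. The other regions were 1 upstream, inside an intron of the neighbouring Odf3l1, in old WT Cre replicate 2 and old EC-K4KO replicate 1 (ranks 91.4% and 96.8%), and 1 in intron 3 in old WT Cre replicate 2 (74.7%).

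Notch3, a Notch receptor that mural cells need to mature and that is mutated in the small vessel disease CADASIL, had 8 peaks in 3 regions and no promoter peak. The exon 24 region (chr17:32143085-32143700, coding sequence, printed above) was found in all 4 old libraries. Its fold was 3.68 and 5.07 in old WT Cre replicates 1 and 2 and 7.09 and 6.65 in old EC-K4KO replicates 1 and 2. Both old EC-K4KO values were above both old WT Cre values, and 7.09 was the highest fold of all 66 member peaks. The percent ranks gave the same order, with 46.5% and 50.9% in old WT Cre and 37.0% and 44.3% in old EC-K4KO, whereas the absolute ranks overlapped (20432 and 16563 against 16677 and 17299). Folds ran higher in the old EC-K4KO lists as a whole, so each was also divided by the median fold of its own list, which gave 1.08 and 1.07 in old WT Cre and 1.49 and 1.24 in old EC-K4KO. An intergenic region 6399 to 6575 bp upstream (chr17:32172988-32173570) was in old WT Cre replicate 2 (fold 5.19, rank 50.5%) and in both old EC-K4KO lists (folds 4.26 and 4.24, ranks 66.7% and 75.8%). There the old WT Cre peak was the stronger, so the 2 regions of this gene differed in the order of the genotypes. The third region, in exon 19, was in young EC-K4KO replicate 1 only (fold 2.57, rank 69.9%).

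Anpep, which encodes aminopeptidase N (CD13), a surface enzyme by which brain pericytes are stained, had 6 peaks in 2 regions, none in young lists. The intron 14 region (chr7:79831307-79831979), which overlaps an exon of the annotated gene Gm44974, had folds of 3.02 in old WT Cre replicate 2, 4.74 in old EC-K4KO replicate 1 and 3.95 in old EC-K4KO replicate 2. The second region (chr7:79844320-79844911) lay 2160 to 2263 bp upstream of the TSS the authors used and between the 2 annotated TSSs of the gene. It had folds of 2.65 in old WT Cre replicate 1, 3.66 in old EC-K4KO replicate 1 and 5.10 in old EC-K4KO replicate 2. In both regions each old EC-K4KO fold exceeded that of the 1 old WT Cre library with a peak, and that library was a different one in each. Relative to the median fold of each list, in the same order of libraries, the intron 14 region stood at 0.641, 0.998 and 0.739 and the second region at 0.777, 0.771 and 0.953, so in the second the order was lost.

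Rgs5, a regulator of G protein signalling that is among the most abundant pericyte transcripts, had 4 peaks in 2 regions. The intron 3 region printed above had folds of 3.76 in old WT Cre replicate 2, 4.04 in old EC-K4KO replicate 1 and 4.66 in old EC-K4KO replicate 2. Its percent ranks were 75.9%, 69.9% and 69.1%, but its absolute ranks were 24706, 31481 and 26990 in lists of unequal length, so rank gave no clear order. Relative to the median fold of its list the region stood at 0.797, 0.850 and 0.871. The other peak lay 18468 bp upstream in young EC-K4KO replicate 3 only (fold 3.33, rank 80.7%).

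Kcnj8 and Abcc9 encode the pore (Kir6.1) and the regulatory subunit (SUR2) of the ATP-sensitive potassium channel of mural cells, and lie next to each other on chromosome 6. The Kcnj8 promoter region (chr6:142571222-142571587) had a peak in old WT Cre replicate 2 (fold 3.71, rank 77.0%) and in old EC-K4KO replicate 2 (fold 4.32, rank 74.8%), and in no other list. A region 26008 to 26025 bp downstream of the TSS was again in 1 library of each old genotype, with folds of 3.92 in old WT Cre replicate 2 and 3.77 in old EC-K4KO replicate 1. The last Kcnj8 peak, 10864 bp upstream in old WT Cre replicate 1, ranked at 98.4%. Abcc9 was the exception among the 10 genes, with 3 peaks in 3 places and none in old EC-K4KO. They were in young WT Cre replicate 1, young EC-K4KO replicate 3 and old WT Cre replicate 2, with folds of 3.69, 3.13 and 3.17 and ranks of 95.2% to 96.0%, at the very end of each list.

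The contractile genes of smooth muscle come next. Acta2, which encodes smooth muscle α-actin, had the most peaks of the 10 genes, 13 in 5 regions. Its intron 7 region (chr19:34243852-34244366) was the only region found at both ages, with folds of 3.28 in young EC-K4KO replicate 3, 3.80 and 3.88 in old WT Cre replicates 1 and 2, and 4.75 and 4.89 in old EC-K4KO replicates 1 and 2. Both old EC-K4KO folds lay above both old WT Cre folds, but relative to the median fold of each list the values were 1.12 and 0.821 in old WT Cre and 0.999 and 0.914 in old EC-K4KO, and the genotypes overlapped. The best rank, 47.0%, was that of old WT Cre replicate 1. The promoter peak of old EC-K4KO replicate 1 (chr19:34255260-34255608, fold 3.68, rank 74.5%) covered the TSS at position 34255590. In old EC-K4KO replicate 2 a broad peak of 1139 bp lay in intron 1 (fold 2.93, rank 99.9%) and stopped short of that TSS, at position 34255449. These peaks overlap and count as 1 region. A peak in exon 9 was in old EC-K4KO replicate 2 only (fold 3.09, rank 95.3%).

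Upstream of Acta2, 2 intergenic regions recurred. The nearer (chr19:34262467-34262918) was in both old EC-K4KO libraries and no other, with folds of 3.32 and 3.53 and ranks of 82.4% and 88.5%. The farther (chr19:34265596-34265975), 10376 to 10440 bp from the TSS, holds the CArG box in capitals above. Its folds were 3.90 in old WT Cre replicate 2, 4.53 in old EC-K4KO replicate 1 and 4.09 in old EC-K4KO replicate 2, with ranks of 69.2%, 60.2% and 76.5%. The old genotypes overlapped in rank there.

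Myh11, the smooth muscle myosin heavy chain and the most specific marker of that cell type, had 8 peaks in 6 regions, of which only the promoter recurred. The promoter region (chr16:14291255-14291834) had folds of 4.42 in old WT Cre replicate 2, 4.79 in old EC-K4KO replicate 1 and 4.09 in old EC-K4KO replicate 2, and ranks of 56.7%, 56.8% and 76.1%. The old WT Cre peak lay between the 2 old EC-K4KO peaks in fold. The other 5 regions, in introns, were each in 1 library, namely 2 in old WT Cre replicate 2 and 1 each in young EC-K4KO replicates 1 and 3 and old EC-K4KO replicate 1. Across all 9 libraries, the protein-coding genes whose TSS rank ran closest to that of Myh11, with an absent peak set to 100%, were Slc16a3 (mean absolute difference 0.721 percentage points) and Ric3 (1.62 percentage points). Both had a TSS peak in the same 3 libraries, which this measure selects for, and shared no peak with Myh11. Libraries where both genes of a pair lacked a peak added nothing to the mean difference.

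Tagln, which encodes the actin-binding protein transgelin (SM22α), had 3 peaks, all in old EC-K4KO. A peak 983 or 985 bp upstream (chr9:45936892-45937191) was put in the promoter-TSS class in both replicates, with folds of 4.36 and 3.31 and ranks of 57.6% and 91.5%, but did not reach the TSS. Tagln was the only 1 of the 10 genes with a promoter-TSS class peak in both old EC-K4KO lists and no other list, which held for 0.452% of protein-coding genes (1.06% where only old WT Cre lists had to lack it). The third peak, 228 bp into the gene in replicate 1, ranked at 97.3%.

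**Figure D3:**
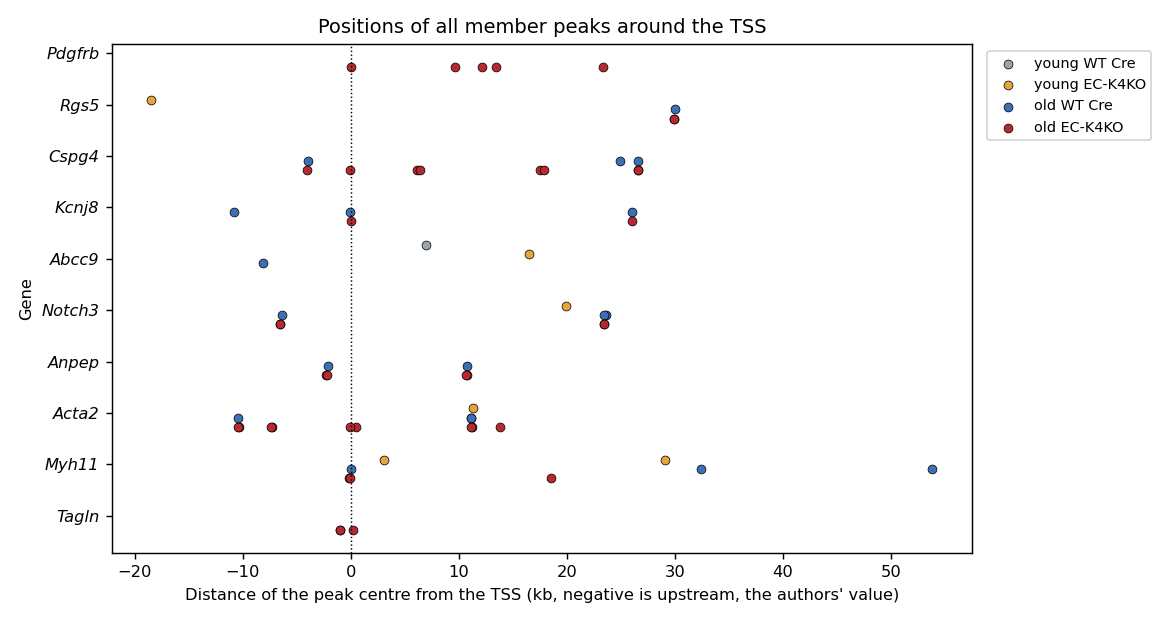
Distance in kb of every member peak from the TSS of its gene (horizontal, negative upstream, as the authors' annotation gives it), by gene and coloured by group. Stacked red and blue points, as in exon 24 of Notch3 and intron 7 of Acta2, are regions found in both old genotypes.

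Most regions rested on 1 library. Of the 37 regions, 20 were in 1 library, 8 in 2 and 9 in 3 or more. They were found in old libraries only in 30 cases, in young only in 6 and in both in 1. Among the old-only and shared regions, 14 had a peak in both old EC-K4KO libraries, and 9 of those 14 had one in old WT Cre too. The remaining 5 (2 in Cspg4, 2 in Acta2 and 1 in Tagln) were in both old EC-K4KO libraries and no other. Counting regions in either 1 or both libraries of a group, 14 were in old EC-K4KO alone and 5 in old WT Cre alone. Those 5 were each in 1 library. Every old list was longer than every young one, and the old EC-K4KO lists together were longer than those of old WT Cre. The shares of all regions of the series with these patterns were not computed, so nothing particular to these genes is read from the counts.

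The member peaks were narrow and near the end of their lists. Their median width was 264 bp (154 to 1139 bp) and their median fold 3.60, and only 4 of 66 were in the upper part of their list above a rank of 50%. In every library with a member peak, the median fold of the members (2.71 to 4.09) was below that of the whole list (3.11 to 5.35). At a q below 0.01, 40 of 66 member peaks remained (60.6%), 0 of them in young lists, 3 and 9 in old WT Cre and 16 and 12 in old EC-K4KO. Of the whole lists, 61.8% and 79.5% remained in old WT Cre and 83.0% and 89.2% in old EC-K4KO. The order of the old groups in these counts was as before, but the old EC-K4KO lists also stayed the longer ones. Counts at this q were not set against list length.

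Short sequence motifs were searched on both strands in 300-base windows at the centre of each region, as a description of letters and not of binding. The CArG box was searched in its strict form only, so boxes with a G or C in the core were not counted. It was in 1 of 37 member regions (2.70%) and in 1.55% of the 92495 regions of the series. GGGNGTGG (KLF type) was in 3 of 37 (8.11%, beside 11.1%), GGAAGT (ETS type) in 7 (18.9%, beside 22.3%) and TGGGAA (RBPJ type, the DNA partner of Notch) in 13 (35.1%, beside 26.8%). A CTCF-type core (CCA, AG and GGC, each spaced from the next by 2 bases of any kind), searched only after the sequences had been seen, was in 5 (13.5%, beside 4.76%), namely in Acta2 intron 7, Cspg4 introns 3 and 5, Myh11 intron 9 and Pdgfrb intron 9. In the Acta2 intron 7 sequence above it stands on the printed strand's complement as CCACTAGATGGC, with its nearest base 14 positions from the capitals. Pdgfrb, Myh11 and Tagln had no RefSeq promoter window, so no window of theirs was searched. For the other 7 of the 10 genes, windows of 300 bases around the start (GRCm38.p6) were matched. Of these 7 windows, 0 held a CArG box of the strict form, beside 1.63% of 32851 windows. Their median GC content was 60.0% (52.7% in all windows) and their median number of CpG dinucleotides 16 (7 in all).

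Another 30 genes known from pericytes and smooth muscle, none of them among the 10, were also counted. The rule that chose the 10 had not used them, but they were listed with earlier results of these data known. Their counts depend on list length too, so the tests below do not stand as independent evidence. The number with a TSS peak was 1 and 3 in young WT Cre, 4, 6 and 5 in young EC-K4KO, 7 and 9 in old WT Cre, and 14 and 10 in old EC-K4KO. At least 1 list held one for 16 of the 30, near the 54.4% of all protein-coding genes, and 14 had none. EC-K4KO exceeded WT Cre of the same age by a mean of 3.5 genes, 3 in young and 4 in old mice (two-sided exact permutation test over 60 arrangements, p = 0.0167, the smallest it allows, BH-adjusted p = 0.0167 over 2 tests, higher in 5 of 5 EC-K4KO libraries). Old exceeded young of the same genotype by 6.5 genes (exact permutation p = 0.0167, adjusted p = 0.0167, higher in 4 of 4 old libraries). The genotype difference did not differ detectably between ages (old minus young 1 gene, exact permutation p = 0.85).

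The lists as a whole differed too. The share of all protein-coding genes with a TSS peak was 16.5% and 24.1% in young WT Cre, 36.7% to 44.8% in young EC-K4KO, 46.7% and 47.8% in old WT Cre, and 51.0% and 49.5% in old EC-K4KO. After subtraction of that share, the EC-K4KO minus WT Cre difference was -0.506 percentage points (exact permutation p = 0.9) and the old minus young difference 3.92 percentage points (exact permutation p = 0.517), and neither passed. With each list cut to its strongest 6157 peaks, the genotype difference was 0.25 genes (exact permutation p = 0.4). At that length each list held only 1 or 2 of the other pericyte and smooth muscle genes, which left almost no room for a difference. That cut therefore cannot show whether the genotype difference depends on list length. Leaving out old WT Cre replicate 1, old WT Cre replicate 2, old EC-K4KO replicate 1, young WT Cre replicate 1 or a young EC-K4KO library took the genotype call past 0.05, with differences of 2.5 to 4 genes, and without a young EC-K4KO library no p below 0.0556 is possible. The rise of other cell type genes in old EC-K4KO lists given above moved in the same direction, and its part in the result was not tested.

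Named genes of the 30 spanned the range from ubiquitous to old EC-K4KO only. Tpm1, a tropomyosin that many cell types use, had a TSS peak in all 9 lists. Its percent rank was between 2.13% and 6.57% in 7 lists and larger, from 13.5%, in the short lists of the young WT Cre pair. Its absolute ranks overlapped, with 859 and 1300 in young WT Cre and 691 to 2885 in the 7 lists. Tbx18, a mural transcription factor, and Ednra, the endothelin receptor of smooth muscle, each had a TSS peak in both old EC-K4KO lists and no other. Tbx18 had folds of 3.87 and 4.68 and ranks of 69.6% and 66.0%, and Ednra folds of 3.64 and 4.60 and ranks of 72.7% and 67.2%. Gucy1a1, a subunit of the nitric oxide receptor guanylate cyclase, had one in both old EC-K4KO lists (ranks 89.9% and 82.6%) and no old WT Cre list, but also in young EC-K4KO replicates 1 and 2 (49.3% and 71.2%). Des and Myocd, named after their values were seen, had no TSS peak in old EC-K4KO. Des, the intermediate filament desmin, had one in 1 old WT Cre list, and Myocd, which encodes myocardin, in 1 old WT Cre and 1 young EC-K4KO list. The pattern of both old EC-K4KO and no old WT Cre list was met by 3 of 30 genes. It was met by 1.26% of all protein-coding genes and 0 of the 10 member genes. This count depends on list length. In old EC-K4KO replicate 1, Ednra and Gucy1a1 held absolute ranks of 32752 and 40465, and Tbx18 of 31324. With old lists cut to their strongest 32555 peaks, only Tbx18 of these 3 kept the pattern. The share of all genes was not computed at that length. The 30 genes were listed with earlier results known, so no enrichment is read from this count.

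**Figure D4:**
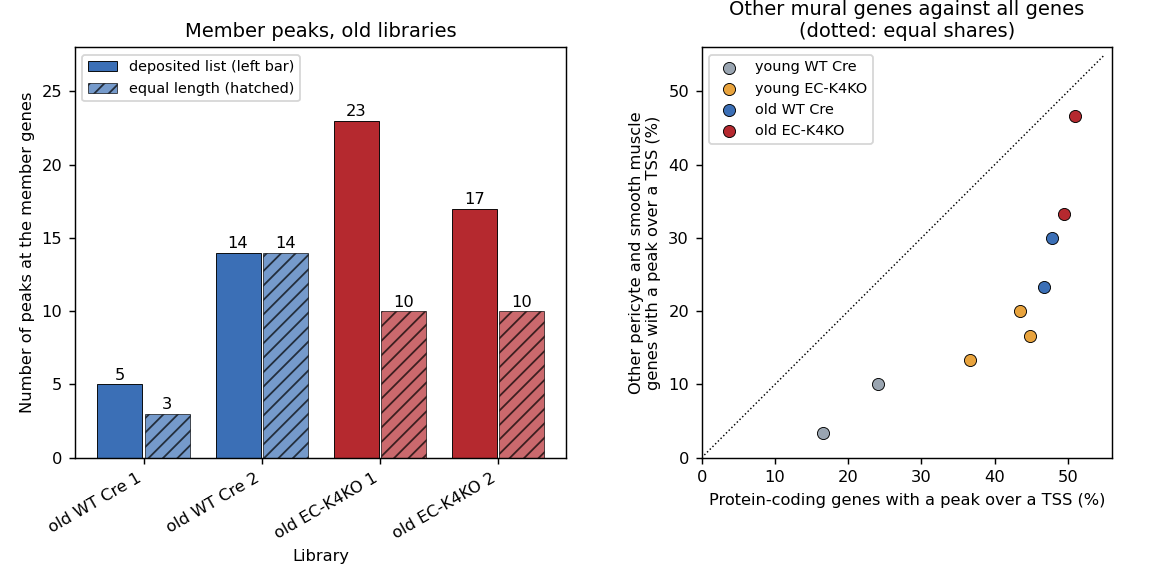
Left, number of member peaks in each old library in the deposited list and in its strongest 32555 peaks (hatched). Right, share of the 30 other pericyte and smooth muscle genes with a TSS peak against that of all protein-coding genes, 1 point per library, with a dotted line at equal shares. At equal length old WT Cre held 3 and 14 peaks and old EC-K4KO 10 and 10, and all 9 points lie below the line.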

How the data were processed

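Per the labels and the methods of the study, reads were aligned by the authors to mm10 (Bowtie2), filtered for duplicates and mapping quality, and turned into broad peaks for each library (MACS2). The authors' tables give a score, a fold enrichment (a ratio to local background), a deposited −log10 p and a deposited −log10 q per peak, and a distance to TSS, class and gene name. Longer lists reach weaker peaks, so presence depends on list length. Read counts were not analysed here, so the DiffBind and DESeq2 test of the study could not be rerun.

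All 253457 peaks lay within GRCm38 chromosomes. A peak was over a TSS when it covered a TSS of GENCODE M21 basic protein-coding transcripts. Peaks were ranked within a list by −log10 p, and peaks sharing 1 bp were merged. The exact permutation tests shuffled genotype within age or age within genotype and were tested on simulated data. All member peaks were reported. Of the 30 other mural genes, those with a TSS peak in all 9 lists, or in both old EC-K4KO and no old WT Cre list, were named, and the 2 genes nearest to a member were named if it had a TSS peak in at least 3 libraries. The genes, lists and alternatives were chosen with earlier results of these data known. The 4 sequences shown were picked, and folds were divided by the list median, after values were seen. Python 3.11.15, numpy 2.4.6, pandas 2.3.3, scipy 1.17.1, matplotlib 3.10.9 and pysam 0.24.0 were used.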

Additional observations from a re-analysis of the deposited data

How the results depend on the processing

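The genotype difference of the 30 other mural genes (3.5) was 0.25 in the strongest 6157 peaks (p = 0.4), 2.92 at q below 0.01 (p = 0.05), 1.83 by promoter-TSS class (p = 0.2) and 1.67 with the TSS at least 50 bp inside the peak (p = 0.0833), all by exact permutation. With young EC-K4KO lists cut to 23848 peaks and old lists to 32555, it was 2.25 (exact permutation p = 0.0333). It was 3.58 at q below 0.05 and 3.75 within 1000 bp of a TSS (exact permutation p = 0.0333 each). The genotype difference turned to -0.0833 in the strongest 6157 peaks by fold. In both 6157-peak settings each list held 1 or 2 of the 30 genes, so they left almost no room for a difference. Against all genes it turned to -0.506 percentage points, a mean over ages that went opposite ways. The age difference (6.5) was 0.25 in the strongest 6157 peaks (p = 1) and 3.92 percentage points against all genes (p = 0.517), and turned to -0.417 in the strongest 6157 peaks by fold (p = 0.5), all by exact permutation. It was 5.25 to 9.25 with the other list cut, both q limits and every other TSS definition (exact permutation p = 0.0167 each). Without 1 library the genotype difference ranged from 2.5 to 4.5 (exact permutation p = 0.0333 to 0.1) and the age difference from 5.5 to 7.5 (exact permutation p = 0.0333 to 0.0556, the last being the smallest possible without a young EC-K4KO library).

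Member genes with a TSS peak numbered 2 more in old EC-K4KO than in old WT Cre, but 0 more in the strongest 6157 peaks by −log10 p or by fold, 0.5 at the shortest old length and 3.5 within 1000 bp of a TSS, and 1 to 3 more without 1 library. Against young WT Cre the excess of 3 was 0 in both 6157-peak settings, 1.5 with old lists cut to 32555 peaks and young WT Cre lists left shorter, 4 by promoter-TSS class, 4.5 within 1000 bp, 2 with the TSS 50 bp inside, and 2 to 4 without 1 library. A gap of 200 bp in merging left 37 regions, and counting only genes with a peak left 277 genes with a TSS peak in both old EC-K4KO and no old WT Cre list.

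Deviations of same-numbered libraries correlated at -0.0733 and -0.0333 in young and 0.0309 in old mice. With n = 2 libraries in a group the deviations mirror each other, so both old replicates give the same value. These few values cannot decide whether replicate numbers pair the libraries. With the replicate block, young EC-K4KO replicate 3 being left out, the differences stayed 3.5 and 6.5 (exact permutation p = 0.125 each, the smallest possible). Depth is unknown, so absence from a list does not show closed chromatin.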
